A study of Mus musculus with 2 samples.

Results

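The genes described here encode the constitutive proteasome and the proteins that activate or assemble it. They were chosen by array gene symbol, as the *Psma* to *Psmg* genes that carry a number, without *Psmb8*, *Psmb9* and *Psmb10* of the immunoproteasome. The rule found 46 of the 19057 genes named on the array, read by 81 of 34885 probes with 1 gene symbol. Of these genes, 31 encode subunits of the 26S particle, 4 encode activators and 7 encode assembly chaperones. The remaining genes were *Psma8* and *Psmb11*, paralogs used in testis and thymus, and *Psmc3ip* and *Psme3ip1*, which share the symbol but are not subunits. *Psmf1*, which encodes the inhibitor PI31, had no named probe here. RNA labelled as ovaries was measured in homozygous Y123F female mice (HOM) and in WT females of the same litters, both on the C57BL/6 background and, per the study's methods, 12 weeks old. In the Y123F strain phenylalanine replaces tyrosines in the intracellular part of LepRb, the long form of the leptin receptor, in all tissues. Each genotype was measured as 1 pool of RNA on 1 array, and the study's sources give the number of pooled mice differently.

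The proteasome is the large protease that degrades proteins tagged with ubiquitin in the cytosol and nucleus. Its 20S core is a stack of rings in which outer alpha rings gate the entrance and inner beta rings carry the proteolytic sites. The 19S cap on the core binds ubiquitin, removes it, and unfolds the substrate with a ring of ATPases. In the ovary, as in other tissues, the proteasome takes part in cell cycle progression and in the turnover of steroid receptors and signaling proteins.

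The 2 arrays had 1 sample per genotype, so no gene could be tested and every ratio describes these 2 pools. Signals are given as deposited, in arbitrary units. The log2 HOM/WT values come from background-corrected, quantile-normalized signals of the brightest probe of each gene. A value in parentheses after a pair of signals is this log2 HOM/WT, and a probe was taken as detected where its detection p-value was under 0.01. Of the probes, 34.4% were detected on the HOM array and 32.9% on the WT array. Of 13 measured markers of granulosa cells, oocytes, theca and luteal cells, 2 were detected on both arrays, the granulosa gene *Inha* and the oocyte gene *Gdf9*. *Star*, *Cyp17a1*, *Cyp11a1* and *Hsd3b1* of steroid synthesis were detected on neither. The summed signal of 5 smooth muscle genes was 22148 on the HOM array and 21521 on the WT array. Most markers of the labelled ovary were thus not detected on these arrays, and whether the pools match their tissue label was not tested. In bulk RNA fewer cells of a type and less RNA per cell cannot be told apart.

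Of the 46 proteasome genes, 36 were detected on both arrays, 1 on the HOM array only and 9 on neither. None of the 37 detected genes was 2-fold higher on the HOM array and none was 2-fold lower, where 0.407% and 1.49% of all 9819 detected genes were. At 1.5-fold none was higher and 1, *Psmd14*, was lower, against 5.23% and 8.3% of all detected genes. Their log2 HOM/WT ran between -0.72 and 0.57 with a median of 0.11 and an SD of 0.29 across genes. The upper end, *Psmd9*, was not detected on the WT array, and the highest value among genes detected on both arrays was 0.47. Over all detected genes the median was 0.04 and the SD 0.41. The ratio was above 1 for 24 of the 37, or 64.9%, against 53.7% of all detected genes. Among the 25 detected subunits of the 26S particle it was above 1 for 15 (60%), and their median log2 HOM/WT was 0.09. In the deposited signals, before any scaling, 32 of the 36 genes detected on both arrays were brighter on the HOM array (88.9%), as were 74.9% of all such genes. Most detected genes of the array were thus brighter on the HOM array, so a small ratio can change sign with the scaling. Probes of 1 gene differed in log2 HOM/WT with a pooled SD of 0.33 over 3225 genes, and of 0.28 over the 14 proteasome genes with several detected probes. The spread between proteasome genes was therefore about as large as the spread between probes of a single gene.

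**Figure D1:**
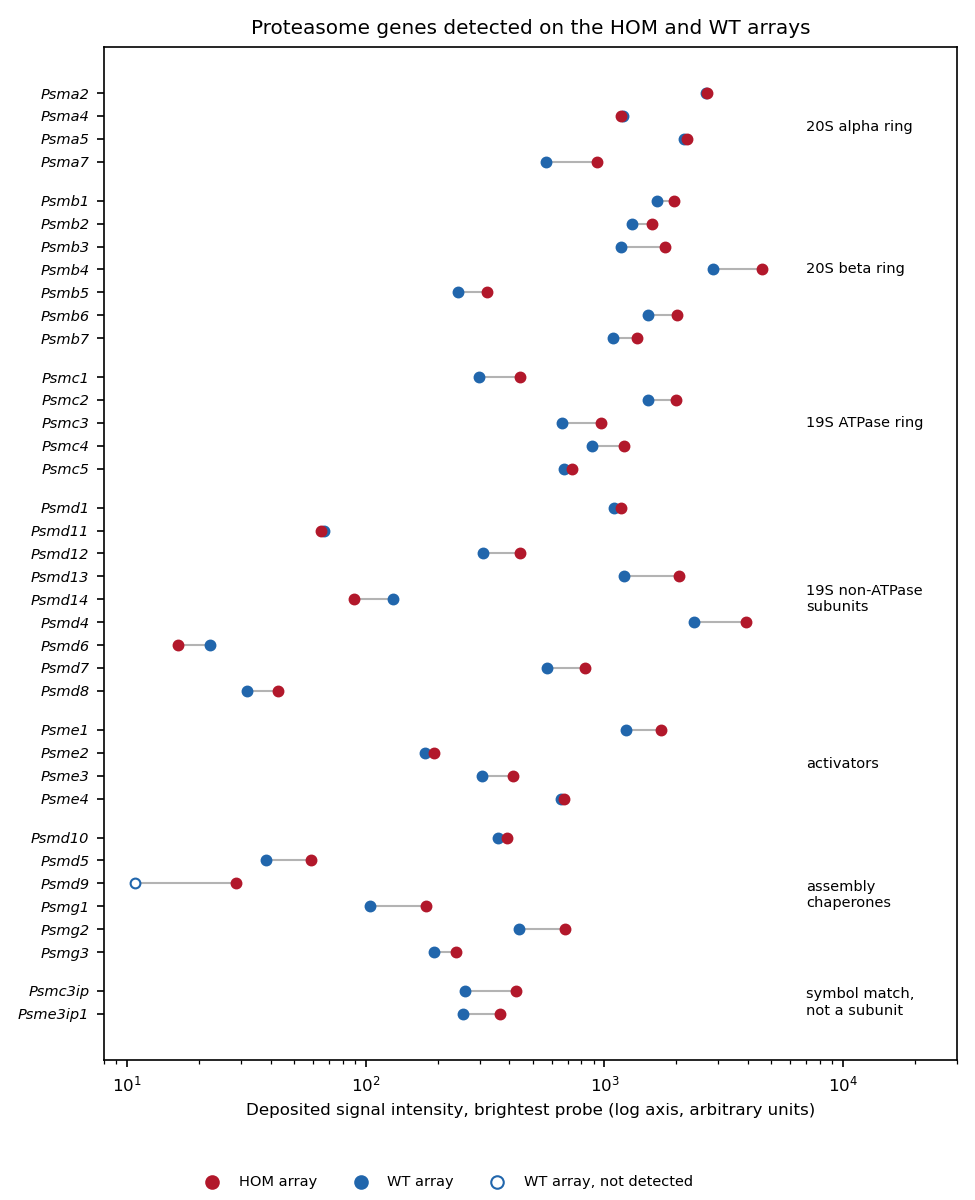
Deposited signal of the brightest probe of each of the 37 detected proteasome genes on the HOM array (red) and the WT array (blue), on a log axis in arbitrary units, 1 array per genotype; the open circle marks a signal that was not detected. In 32 of the 36 genes detected on both arrays the HOM signal lies to the right of the WT signal. The points of *Psma2*, *Psma4* and *Psma5* nearly coincide, as do those of *Psmd11* and *Psme4*.

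Proteasome genes are known targets of *Nfe2l1* and *Nfe2l2*, transcription factors that bind the antioxidant response element (ARE), and some answer to interferon. The promoters of 4 members are printed to show where these elements lie, the catalytic subunits *Psmb5* and *Psmb6*, the assembly chaperone *Psmd9*, and the ubiquitin receptor *Psmd4*. They are RefSeq sequences of build GRCm38.p6 and show the 250 bases before the start site taken for each gene, 5′ to 3′ on the strand of the gene. Capitals mark the ARE core TGACNNNGC in the first 3 and the interferon-stimulated response element in *Psmd4*, where it lies on the opposite strand. The stretch of *Psmd9* also holds the interferon-stimulated response element, left in lower case. That element was searched as a pair of GAAA stretches with any 2 bases between them. The windows are chr14:54617996-54618245 on the reverse strand, chr11:70525107-70525356 on the forward strand, chr5:123227940-123228189 on the forward strand and chr3:95042615-95042864 on the reverse strand.
Psmb5: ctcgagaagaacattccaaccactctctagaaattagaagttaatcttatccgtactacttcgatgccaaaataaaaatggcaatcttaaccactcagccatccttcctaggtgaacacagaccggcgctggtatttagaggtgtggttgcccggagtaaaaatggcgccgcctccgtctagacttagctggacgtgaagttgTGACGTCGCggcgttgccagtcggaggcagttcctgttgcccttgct
Psmb6: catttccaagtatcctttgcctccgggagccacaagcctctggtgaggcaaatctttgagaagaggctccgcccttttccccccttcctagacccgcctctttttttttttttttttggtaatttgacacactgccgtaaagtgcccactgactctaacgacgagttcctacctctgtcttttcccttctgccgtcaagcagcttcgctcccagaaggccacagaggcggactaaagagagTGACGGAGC
Psmd9: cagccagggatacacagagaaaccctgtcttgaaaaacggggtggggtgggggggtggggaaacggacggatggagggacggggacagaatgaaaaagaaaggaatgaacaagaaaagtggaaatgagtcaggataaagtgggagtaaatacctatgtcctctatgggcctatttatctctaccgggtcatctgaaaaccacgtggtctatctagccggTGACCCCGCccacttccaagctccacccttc
Psmd4: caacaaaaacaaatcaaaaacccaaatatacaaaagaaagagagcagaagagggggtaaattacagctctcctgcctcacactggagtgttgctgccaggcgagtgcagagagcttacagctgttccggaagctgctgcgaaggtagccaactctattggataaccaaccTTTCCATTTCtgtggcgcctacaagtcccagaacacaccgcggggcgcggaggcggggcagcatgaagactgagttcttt

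In these promoters the ARE core begins at position -47 from the start site in *Psmb5*, at -9 in *Psmb6* and at -31 in *Psmd9*. The RefSeq gene record of *Psmb6* begins at chr11:70525324, before the start site taken here, so its ARE core lies inside the annotated gene. The interferon element begins at -80 in *Psmd4*. Promoter windows of 300 bases, which run 50 bases past the start site, were matched for 36 of 44 proteasome genes and searched on both strands. The ARE core was found in 6 of the 36 (16.7%), and in 14% of 27025 genes of the table. The box CCAAT was found in 13 (36.1%), against 41.1% of all, and the interferon element in 5 (13.9%), against 3.99%. No match of one motif overlapped a match of another. The median log2 HOM/WT was 0.10 over 5 detected genes with the ARE core and 0.09 over 24 without it. It was 0.38 over 4 detected genes with the interferon element, *Psmb3*, *Psmd4*, *Psmd9* and *Psme1*, and 0.07 over 25 without it. *Psmd9* passed the detection rule through the HOM array alone, and the median of the 3 genes detected on both arrays was 0.29. The immunoproteasome genes *Psmb8*, *Psmb9* and *Psmb10*, with log2 HOM/WT of 1.29, 0.50 and 0.65, had no match to the interferon element in their windows. These are descriptions of letters in a window, and none of them was tested.

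Of the 7 alpha ring genes, 4 were detected, and 3 of these had nearly equal signals on both arrays. *Psma2* had a signal of 2702 on the HOM array and 2657 on the WT array (log2 HOM/WT -0.27, and 0.02 without scaling). *Psma4* had 1170 on the HOM array and 1201 on the WT array (-0.37, and -0.04 without scaling). *Psma5* had 2215 on the HOM array and 2156 on the WT array (-0.27, and 0.04 without scaling). All 3 lay below the median of all detected genes under each scaling, which was 0.28 without scaling, and each was read by 1 detected probe. *Psma7* differed from them, with 930 on the HOM array and 569 on the WT array (log2 HOM/WT 0.38), and its second probe gave 0.17. The median log2 HOM/WT of the ring was -0.27. *Psma1*, *Psma3* and *Psma6*, whose products are obligate members of the same ring, were at background on both arrays, with signals between -9.48 and 6.64, so these probes give no level.

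All 7 genes of the beta ring were detected on both arrays, and their median log2 HOM/WT was 0.09. The highest values belonged to structural subunits. *Psmb4* had a signal of 4593 on the HOM array and 2860 on the WT array (log2 HOM/WT 0.40), and *Psmb3* had 1798 on the HOM array and 1175 on the WT array (0.29). *Psmb1* (-0.07) and *Psmb2* (-0.05, with 0.33 on its second probe) had the lowest values of the ring. The catalytic subunits lay between. *Psmb5*, which carries the chymotrypsin-like site, had 322.6 on the HOM array and 243 on the WT array (0.09). *Psmb6*, with the caspase-like site, had 2007 on the HOM array and 1516 on the WT array (0.10), and its second probe gave 0.33. *Psmb7*, with the trypsin-like site, was read by 4 detected probes whose log2 HOM/WT ran between 0.01 and 0.53, the brightest being the lowest. RefSeq lists pseudogenes or a close copy for *Psma5*, *Psmb5*, *Psmb6*, *Psmb7* and the activator *Psme2*, and what they add to these signals was not tested.

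The 19S cap was represented by 14 detected genes of 17, with a median log2 HOM/WT of 0.11. In its ATPase ring, which unfolds the substrate, 5 of 6 genes were detected and their values were close together. *Psmc1*, whose product helps open the core's gate, had signals of 443 on the HOM array and 297 on the WT array (log2 HOM/WT 0.25). *Psmc3* had 963 on the HOM array and 663 on the WT array (0.20), *Psmc4* had a log2 HOM/WT of 0.11 and *Psmc2* 0.07. *Psmc5* had 732 on the HOM array and 674 on the WT array (-0.20), but its second probe had 726 on the HOM array and 442 on the WT array and gave 0.39. *Psmc6* was detected by neither of its 2 probes.

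The non-ATPase subunits held both extremes of the 26S particle. *Psmd4*, the ubiquitin receptor whose promoter is shown above, had a signal of 3923 on the HOM array and 2383 on the WT array (log2 HOM/WT 0.47). *Psmd13*, a subunit of the lid, had 2049 on the HOM array and 1209 on the WT array (0.43). Both genes were read by 1 probe each, and both values were above the median of all detected genes under each scaling. *Psmd14*, the metalloprotease that removes ubiquitin from the substrate, was the member that was 1.5-fold lower, with 89.05 on the HOM array and 129 on the WT array (log2 HOM/WT -0.72). Its second probe had 106 on the HOM array and 86.8 on the WT array (-0.01), and the mean of both was -0.36, so the value rests on 1 probe. *Psmd6* was dim, with 16.4 on the HOM array and 22.2 on the WT array (-0.37), close to the dimmest detected signals of 15.9 and 15.1 on these arrays.

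The other lid and base genes lay between these values. *Psmd7*, the partner of *Psmd14*, had 3 detected probes with log2 HOM/WT of 0.19, 0.32 and 0.40. *Psmd1*, a scaffold of the base, had 3 probes with -0.31, -0.23 and -0.11. For both genes the probes lay on the same side of 0, as they did in 9 of 14 proteasome genes with several detected probes. The brighter probe of *Psmd12* gave 0.19 and its dim probe, with 16.8 on the HOM array and 29.1 on the WT array, gave -0.61, a range of 0.79 that was the widest of any member. *Psmd8* had a log2 HOM/WT of 0.11 and *Psmd11* of -0.24. *Psmd2* and *Psmd3*, both obligate subunits, were at background on all of their probes.

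**Figure D2:**
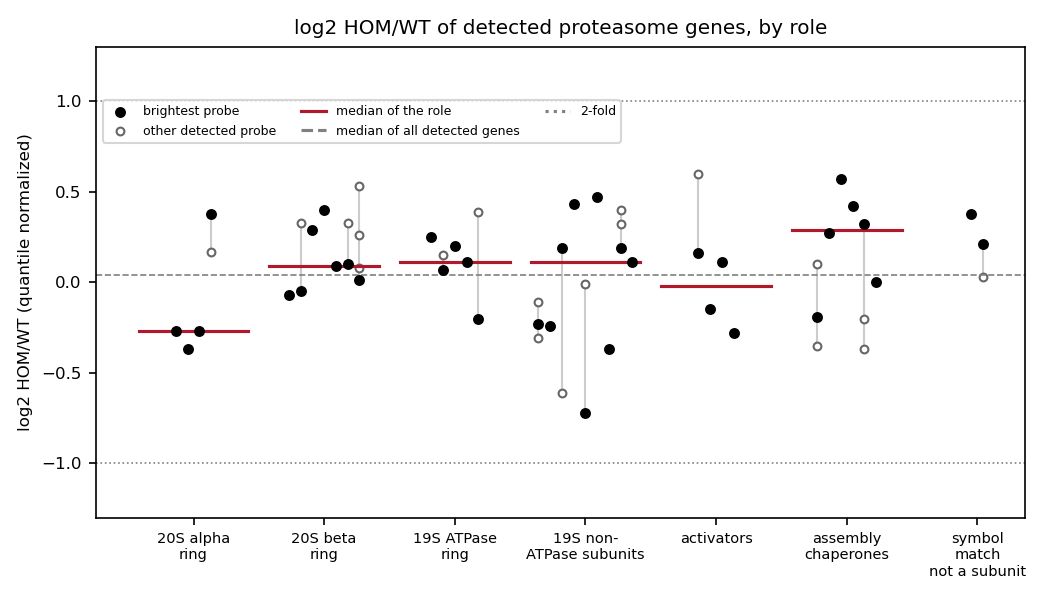
log2 HOM/WT after quantile normalization for each detected proteasome gene, grouped by role, with the brightest probe filled, other detected probes open and joined by a grey line, the role median in red, the median of all detected genes (0.04) dashed and 2-fold dotted. No point reaches 2-fold and 3 of the 4 alpha ring genes lie at -0.27 or below. The role median of the chaperones, 0.29, includes *Psmd9*, which was detected on the HOM array only.

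All 4 activators were detected on both arrays, and their median log2 HOM/WT was -0.02. *Psme1* and *Psme2* form the PA28 ring that interferon gamma induces, and they are joined in 1 complex. *Psme1* had a signal of 1721 on the HOM array and 1233 on the WT array (log2 HOM/WT 0.16), with 0.60 on its second probe. *Psme2* had 193 on the HOM array and 177 on the WT array (-0.15). *Psme3*, the nuclear activator, had 413 on the HOM array and 306 on the WT array (0.11). *Psme4*, which encodes PA200, had 678 on the HOM array and 660 on the WT array (-0.28, and 0.04 without scaling). The activators therefore held values on both sides of the all-gene median.

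The assembly chaperones had a median log2 HOM/WT of 0.29 over 6 detected genes of 7, and of 0.27 without *Psmd9*, which was not detected on the WT array. With each gene taken as the mean over its detected probes it was 0.14, below the 0.21 of the beta ring. *Psmg1* and *Psmg2* encode the pair that builds the alpha ring. *Psmg1* had a signal of 179 on the HOM array and 104.5 on the WT array (log2 HOM/WT 0.42, 1 probe). *Psmg2* had 681 on the HOM array and 437 on the WT array (0.32), but its other probes gave -0.20 and -0.37. *Psmd5*, *Psmd9* and *Psmd10* chaperone the ATPase ring. *Psmd9* was detected on the HOM array only, with a signal of 28.6 there and 10.8 on the WT array, so that on this probe HOM exceeded WT at least 1.29-fold. That bound sets its normalized value against the dimmest detected probe of the WT array and allows for no measurement error. The second *Psmd9* probe went the other way, with 10.1 on the HOM array and 13.6 on the WT array (-0.23), and was detected on neither. *Psmd5* had 58.7 on the HOM array and 38.1 on the WT array (0.27), *Psmd10* had a log2 HOM/WT of -0.19 and *Psmg3* of 0.00. *Psmg4* was not detected. Of the genes that share the symbol only, *Psmc3ip*, a cofactor of meiotic recombination, had 428 on the HOM array and 261 on the WT array (0.38), and *Psme3ip1* had 0.21. *Psma8* and *Psmb11* were at background on both arrays.

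**Figure D3:**
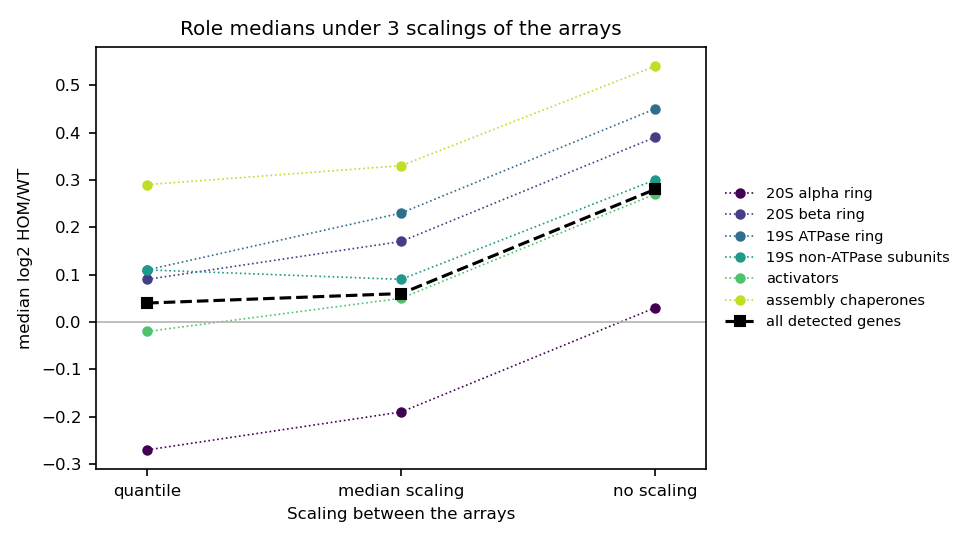
Median log2 HOM/WT of each role group (circles) and of all detected genes (squares, dashed) after quantile normalization, median scaling and no scaling between the HOM and WT arrays. Every line is highest without scaling, where the median of all detected genes is 0.28. By the brightest probe the alpha ring is lowest and the chaperones are highest in each of the 3 settings, but with the mean over detected probes the beta ring (0.21) lies above the chaperones (0.14).

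Every group median was highest without scaling. The proteasome genes had a median log2 HOM/WT of 0.11 with quantile normalization, of 0.18 with median scaling and of 0.40 unscaled, and all detected genes had 0.04, 0.06 and 0.28 in the same settings. Set against all detected genes, the proteasome genes thus lay 0.07, 0.12 and 0.12 higher. The number above the all-gene median was 22, 23 and 23 of 37. The proteasome genes are bright, and 32 of the 37 had a mean signal above 100. Among all 5163 detected genes that bright, the median was 0.04 and 54.5% had a ratio above 1, against 0.10 and 65.6% for the 32. Past 2-fold, 0.349% of these bright genes were higher and 1.55% lower, and none of the 32 was either. Past 1.5-fold, 4.44% were higher and 8.19% lower, and among the 32 only *Psmd14* was lower and none was higher.

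The constitutive catalytic subunits were set beside *Psmb8*, *Psmb9* and *Psmb10*, which take their places in the immunoproteasome of immune cells and of cells exposed to interferon gamma. *Psmb5* had a log2 HOM/WT of 0.09, and *Psmb8*, its counterpart, had 1.29 with signals of 1646 on the HOM array and 532 on the WT array. *Psmb6* had 0.10, and *Psmb9* had 0.50 with signals of 524 on the HOM array and 294 on the WT array. *Psmb7* had 0.01, and *Psmb10* had 0.65 with signals of 976 on the HOM array and 495 on the WT array. Each constitutive subunit thus had a smaller ratio than its counterpart, by a log2 difference (constitutive minus immunoproteasome) of -1.20, -0.41 and -0.65. The differences stayed within -1.16 and -1.33, within -0.29 and -0.43 and within -0.48 and -0.66 over the settings run. For *Psmb6* and *Psmb9* the difference was close to the spread between probes of a gene. Of 8 measured leukocyte genes 6 were detected, all with a ratio above 1, a log2 HOM/WT between 0.18 and 1.13, and a summed signal over the list of 4262 on the HOM array and 2218 on the WT array. These values are of the brightest probe, and a second detected probe of *Lyz2* gave -0.14. The sum is of deposited signals before any scaling. Most of it came from *Cd74*, with 2212 on the HOM array and 1030 on the WT array, and *Lyz2*, with 1471 on the HOM array and 841 on the WT array. *Ptprc*, the common leukocyte antigen, and *Itgam* were not detected. The part of leukocytes in the values of the immunoproteasome genes was not tested.

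**Figure D4:**
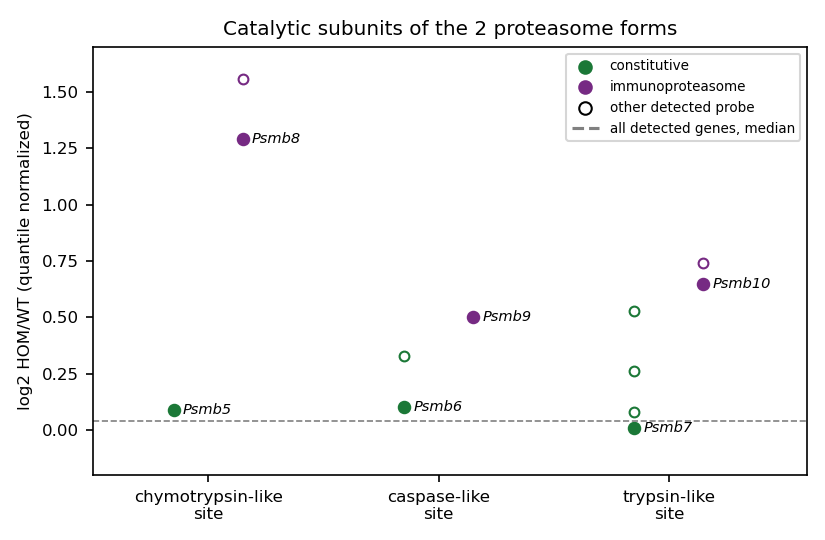
log2 HOM/WT after quantile normalization of the 3 constitutive catalytic subunits (green) and their immunoproteasome counterparts (purple) by proteolytic site, with the brightest probe filled, other detected probes open and the median of all detected genes dashed. *Psmb5*, *Psmb6* and *Psmb7* lie at 0.09, 0.10 and 0.01, and *Psmb8*, *Psmb9* and *Psmb10* at 1.29, 0.50 and 0.65.

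Of 34 listed genes that work with the proteasome but lie outside the rule, 25 had a named probe and 18 were detected. None was past 2-fold in either direction, but *Uchl5* was 2-fold lower (log2 HOM/WT -1.06) without background correction and in the authors' normalized values. Of the 18, 6 had a ratio above 1 (33.3%, against 53.7% of all detected genes), and the median log2 HOM/WT was -0.20, against 0.11 for the proteasome genes and 0.04 for all detected genes. Taken as the mean over detected probes, *Mafg* moved from 0.31 to -0.30 and *Rad23b* from -0.36 to 0.02, and the median of the list was again -0.20. The lowest of the 18 was *Uchl5*, a deubiquitinase of the 19S cap, with 131 on the HOM array and 221 on the WT array (-0.97). Its 4 probes ran between -0.97 and 0.10, with a mean of -0.43. *Usp14*, the other deubiquitinase that binds the cap, was dim, with 24.0 on the HOM array and 32.5 on the WT array (-0.45). *Ecpas*, which tethers the cap to the core, had 123 on the HOM array and 140 on the WT array (-0.44), and *Uba6*, a ubiquitin-activating enzyme, had 256 on the HOM array and 306 on the WT array (-0.53). By their brightest probe these genes had values below the median of all detected genes, also without scaling.

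The transcription factor *Nfe2l1* had the highest value of the list, with a signal of 1328 on the HOM array and 705 on the WT array. On the log2 HOM/WT scale it stood at 0.58 with quantile normalization, 0.68 with median scaling and 0.90 unscaled, from 1 probe. *Nfe2l2*, its relative in the oxidative stress response, had 54.7 on the HOM array and 49.8 on the WT array (-0.10). *Pomp*, the maturation factor of the 20S core, had 2753 on the HOM array and 1888 on the WT array (0.24), and *Vcp*, the ATPase that delivers substrates, had 3603 on the HOM array and 2352 on the WT array (0.36). *Sem1*, a small subunit of the lid outside the naming scheme, had 1867 on the HOM array and 1916 on the WT array (-0.34). *Pomp*, *Vcp* and *Sem1* were picked with their values known.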

How the data were processed

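Total RNA was labelled and hybridized to Illumina MouseWG-6 v2.0 arrays, 1 pool per genotype. The authors deposited background-subtracted signal intensities of 45281 probes with a detection p-value for each, computed by Illumina software against negative control beads (GenomeStudio per the labels, BeadStudio per the Methods; versions are not given in the sources used here). A second table of intensities deposited by the authors was checked and found to hold the same signals after quantile normalization without logarithms (largest deviation 1.57) and served as an alternative. Gene symbols came from the annotation provided with the arrays, for 34885 probes with 1 symbol; 18 probes with several and 10378 not listed were left out.

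Signals were corrected with limma 3.58.1 (normexp from detection p-values, offset 16) in R 4.3.3, taken to log2 and quantile normalized. With this offset, ratios of dim probes shrink toward 1. The probe with the highest mean normalized value represented a gene. Counts of genes past 2-fold are a rule of size, and with 1 array per genotype there is no p-value and no replicate error. The number of arrays limits the precision. The procedure was tested on simulated arrays of equal scale, with ratios changed only in probes of signal above 100. That test does not cover dim genes or arrays that differ in brightness. Named are the catalytic subunits, up to 4 detected members per role with the largest absolute log2 HOM/WT, members past 2-fold or detected on 1 array, up to 5 partner genes with the same criterion and the regulators *Nfe2l1* and *Nfe2l2*. Other members are given in short. Members, lists and tests were chosen with earlier results of these data known. The same values were computed with median scaling or none, with the authors' normalized values, with an offset of 50 or uncorrected background, with detection at 0.05, on both arrays or not required, at a fold of 1.5 and as the mean over probes.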

Additional observations from a re-analysis of the deposited data

How the results depend on the processing

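No paired analysis was possible because each genotype was measured on 1 array. No member was 2-fold lower under any background correction, scaling or detection rule run, and 1 was lower at 1.5-fold, *Psmd14*. The count of members at least 2-fold higher was 0, but 1 without background correction and 1 in the authors' normalized values, in both cases *Psmd9* (log2 HOM/WT 1.16), which was not detected on the WT array. The split of all genes past 2-fold moved as well, to 152 higher and 50 lower (24.8% lower) without scaling and to 4 higher and 48 lower (92.3% lower) with an offset of 50, against 40 higher and 146 lower (78.5% lower) in the values reported. Uncorrected background gave 365 higher and 469 lower, and the authors' normalized values gave 365 and 470 in that order. The number of members with a ratio above 1 ran between 23 of 36, with detection on both arrays, and 33 of 37, without scaling. Of all genes, 52.6% and 73.5% had a ratio above 1 in these 2 settings.

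The median log2 HOM/WT over the members was 0.18 after median scaling and 0.40 without scaling, against 0.11. Without scaling the role medians were 0.03 for the alpha ring, 0.39 for the beta ring, 0.45 for the ATPase ring, 0.30 for the non-ATPase subunits, 0.27 for the activators, 0.54 for the chaperones and 0.09 for the partner genes, and the median of all detected genes was 0.28. As the mean over detected probes the non-ATPase subunits had -0.21, the beta ring 0.21 and the chaperones 0.14, so the chaperones were no longer the highest role. Single members that moved by more than the spread between probes of a gene were *Psmd12* (-0.21), *Psmd14* (-0.36) and *Psmg2* (-0.08) on that mean. *Psma4* (-0.04) and *Psmc4* (0.45) did so without scaling, and *Psmd9* as given above. Other members moved almost as far without scaling, such as *Psmc3*, from 0.20 to 0.53, and *Psmb7*, from 0.01 to 0.33. Among the partner genes *Uchl5* was at -1.06 without background correction and in the authors' normalized values, past 2-fold lower, and at -0.43 as the mean over its probes. Dim genes such as *Psmd6*, *Psmd8* and *Psmd9* lie near background, where the offset understates a change.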
